A study of Nasonia vitripennis with 39 samples.

Results

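The loci described here are 43 genes of the jewel wasp Nasonia vitripennis that had far more RNA in female heads than in male heads. They were chosen from 14613 genes by measured levels in TPM (transcript abundance, a level scaled for gene length and library total, so that levels of different genes can be set side by side). A locus was taken where its mean in 2N and in 3N female heads was at least 4 times its mean in 1N and in 2N male heads after 0.1 TPM was added, where both female head means were at least 5 TPM, and where the 2N female head mean was not below the 2N female abdomen mean. Only genes with a provisional LOC symbol, 13784 of the 14613, could be chosen, without LOC100121630. The female head library B21 was left out of these means. Because the head levels of the sexes chose the loci, that contrast is described below without a test. The symbols carry no function: all 43 loci have an entry in the RefSeq gene table of assembly Nvit_psr_1.1, and 0 of them have a synonym there.

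The libraries were made from poly(A) RNA of heads and abdomens of the Whiting Polyploid Line (WPL), a laboratory line in which polyploidy arose spontaneously, taken 1 day after emergence. All animals shared this strain. The genotypes were WPL_LSL_1N and WPL_LSL_2N for males and WPL_LSL_2N and WPL_LSL_3N for females, where 1N, 2N and 3N give the number of chromosome sets. Each of the 8 groups by ploidy, sex and tissue held 5 libraries, except the 2N female abdomens with 4. No labelled treatment differed between groups. Nothing in the labels tells single animals from pools or ties heads to abdomens. The p-values therefore refer to the spread among the libraries of a group, part of which may be technical.

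Nasonia is haplodiploid: unfertilised eggs usually give haploid males and fertilised eggs diploid females. Female development is set by the splicing factor transformer, which in turn sets the splice form of doublesex and fruitless, the transcription factors that shape sexual traits of body and brain. Heads hold the brain, compound eyes, antennae, mouthparts, head glands and some fat body, and in parasitoid wasps the sexes use their heads differently, since females search for and assess hosts and males court with head movements and secretions of the mouthparts.

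Each library held between 16.3 and 132 M estimated counts, and no 2N female head had more than 18.7 M. The photoreceptor opsin Lop1 had 2139 to 7865 TPM in heads and at most 4.23 TPM in abdomens, so this marker separated the tissues as labelled. The median level of Tra (transformer) was 719.5 TPM in 2N and 693 TPM in 3N female heads, against 89.2 and 85.0 TPM in 1N and 2N male heads. The head library B21 stood apart, with a summed level of 247.5 TPM over 6 ovary and germ line markers against 98.2 to 132.5 TPM in the other 2N female heads. Of these markers oskar had 151 TPM and nanos 10.3 TPM in B21, against at most 25.5 and 0.90 TPM in the other 2N female heads. Cdk1 (14.2 against at most 2.21 TPM) and, by little, Bora (7.93 against at most 6.97 TPM) were also higher in B21. Cenp-a went the other way, with 40.5 TPM in B21 against a 2N female head median of 71.2 TPM. Smc1a in B21 was at the group median of 23.5 TPM. The abdomen libraries B39A (3N female) and B6A (1N male) also stood apart, as described below. The cuticle protein gene CPR48 moved with sex in heads, with medians of 39840 and 13240 TPM in 1N and 2N male heads and 821 and 14.6 TPM in 2N and 3N female heads. In male heads its median made up most of the median sum over 35 CPR genes, and in female heads it did not. That sum was 39390 to 97450 TPM in 1N and 2804 to 132400 TPM in 2N male heads. It was 1390 to 1960 TPM in 2N and 744 to 1174 TPM in 3N female heads. Other CPR genes went either way. CPR34 was also higher in male heads, with medians of 273.9 and 327.1 TPM in 1N and 2N male and 67.2 and 62.4 TPM in 2N and 3N female heads. CPR49 went the other way, with medians of 216 and 239.6 TPM in male and 267 and 303 TPM in female heads. The part of these genes in the head levels of the 43 loci was not tested.

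Every female head had more RNA of these loci in sum than any male head. The 43 levels summed to 15085 to 20991 TPM in the 2N female heads other than B21, to 6682 TPM in B21 and to 6614 to 21292 TPM in 3N female heads. The sums were 491 to 994 TPM in 1N male heads and 603 to 800.4 TPM in 2N male heads. LOC100117414, LOC100122102, LOC100113972 and LOC100122055 alone gave 67.6% to 74.3% of the sum in 2N female heads without B21. Mean levels in those heads ran from 5.19 to 4878 TPM with a median of 49.9 TPM, 16 loci had at least 100 TPM and 15 had less than 20 TPM. The ratio of the lower female head mean to the higher male head mean ran from 4.17 to 3719, with a median of 7.41, and it was at least 10 for 17 loci. In these bulk samples fewer cells of a type and less RNA per cell cannot be told apart.

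LOC100117414 had the highest level of the 43. Its level was 1861, 3395, 4174, 6656 and 5286 TPM in 2N female heads B21 to B25 and 5821, 7168, 5416, 455 and 2397 TPM in 3N female heads B31 to B35A. In 1N male heads it was 14.1, 22.3, 32.95, 7.31 and 0.470 TPM, and in 2N male heads 5.03, 0, 11.6, 2.57 and 59.9 TPM. Every female head was above every male head, the lowest female library being B34A and the highest male library B15. All 19 abdomens had at most 1.26 TPM, so this locus was seen almost solely in heads.

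LOC100122102 had the largest ratio, 3719. In 2N female heads it had 1668, 4143, 3056, 3122 and 3669 TPM, and in 3N female heads 2993, 2966, 2097, 1560.5 and 4926 TPM. Male heads had 0.690, 0.470, 1.26, 0.470 and 0.520 TPM at 1N and 0.160, 0.380, 0.380, 0.140 and 0 TPM at 2N. The female heads lay within a narrow band and the male heads near the bottom of the scale. Unlike LOC100117414, it was also high in female abdomens, with 125, 97.0, 189 and 111 TPM in 2N females and 2431, 3116, 1505, 453 and 2379 TPM in 3N females. Male abdomens had 1.43 to 5.22 TPM, below every female abdomen.

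LOC100113972 had 489, 1699, 1834, 3509 and 1688 TPM in 2N and 2358, 2914, 1552, 528 and 905 TPM in 3N female heads, against 35.05 to 63.3 TPM in all male heads. LOC100122055 had 443, 1155, 1414, 2308 and 1288 TPM in 2N and 1358, 1506, 926, 379 and 601 TPM in 3N female heads, against 12.4 to 82.1 TPM in male heads. In both loci B21 and B34A were the lowest libraries of their groups, yet above all male heads. Abdomen levels of LOC100113972 were 6.49 to 26.3 TPM in males and 0.0900 to 8.77 TPM in females, and those of LOC100122055 at most 0.820 TPM in males and 10.5 TPM in females.

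LOC116416192, a long non-coding RNA in the reference table, was all but absent from male heads. It had 20.9, 51.5, 36.4, 58.1 and 59.5 TPM in 2N and 55.4, 70.6, 42.3, 34.3 and 62.6 TPM in 3N female heads. The 1N male heads had 0.10, 0, 0.08, 0 and 0 TPM and all 5 of the 2N male heads had 0 TPM, so the sexes lay far apart. Summed over libraries, 2177 estimated counts in 2N female heads stood against 0 in 2N male heads, a level at least 3083-fold higher when 3 counts over the group are taken as the floor. Against the 3 counts of the 1N male heads the ratio was 960.9 (95% counting interval 328.4 to 4663, which covers counting error only).

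LOC100379126 and LOC100123613 were the other loci of the highest ratios with little RNA in most male heads. LOC100379126 had 8.62, 21.97, 14.9, 38.02 and 29.0 TPM in 2N and 35.7, 77.0, 10.5, 75.7 and 58.1 TPM in 3N female heads, and at most 0.190 TPM in any male head. LOC100123613 had 77.9, 279, 256, 225 and 291 TPM in 2N and 192, 122, 113, 334 and 371 TPM in 3N female heads. Its male heads had 2.96, 2.91, 0.0700, 1.23 and 30.9 TPM at 1N and 0.630, 0.670, 0.490, 0.510 and 1.90 TPM at 2N. The 1N male head B5D thus stood far above the other male heads but below the lowest female head.

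**Figure D1:**
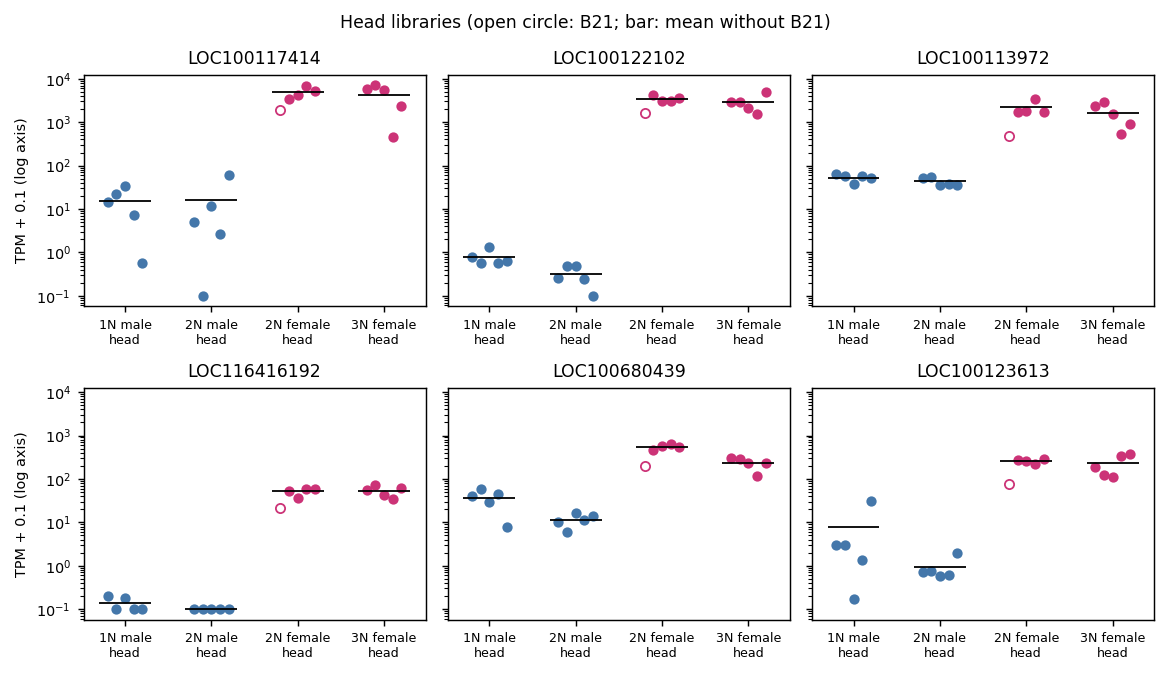
Each panel shows 1 locus, with the head libraries of the 4 groups on the horizontal axis and TPM + 0.1 on a log axis; points are libraries, the open circle is B21 and the bar is the group mean without B21. Every female head of LOC100117414 and LOC100122102, B21 included, lies above every male head, while the spread within female heads is wider for LOC100117414 (455 to 7168 TPM) than for LOC100122102 (1560.5 to 4926 TPM).

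The plot of head levels by library shows the loci with the highest levels and ratios. In 34 of the 43 loci every female head other than B21 was above every male head, as in 2.33% of all LOC genes detected in heads; the choice of the loci favours this, so nothing is read from it. The other 9 were LOC100119474, LOC103317773, LOC100117458, LOC103315910, LOC100122681, LOC107980940, LOC100678243, LOC100124144 and LOC100680164. The widest overlap was in LOC100119474, where the 3N female head B35A had 5.14 TPM while the other 3N female heads had 114 to 644 TPM and the highest male head had 115 TPM. These 9 loci were chosen on their means, and their female and male libraries overlapped.

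The head library B21 was left out by the rule. It was above all 10 male heads in 37 of the 43 loci, where 24.1% of all LOC genes detected in heads had B21 above all male heads. The 6 exceptions were LOC100119474, LOC100678016, LOC100680164, LOC100117458, LOC100117399 and LOC100124144. It was below the 4 other 2N female heads in 38 of 43 loci, against 24.9% of LOC genes detected in heads. The rule used those 4 libraries and the male heads, in which the loci were chosen to be low, so both counts are descriptions and nothing is read from their distance to the shares of all LOC genes. The median ratio of B21 to the mean of the other 2N female heads was 0.390 over the 43 loci and 1.01 over LOC genes of at least 5 TPM. The ratio was smallest for LOC100680164 (0.0884) and largest for LOC103317773 (1.46). Whether the ovary marker RNA in this library has a part in its low levels was not tested.

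Depth differed between head groups, so the female to male ratio is also given within each depth class. These are the libraries on which the loci were chosen, which favours high ratios in both classes, so the values are a description. Among libraries of at most 30 M counts, 6 female without B21 and 5 male, all 43 loci were higher in females, 34 of them at least 4-fold, with a median ratio of 8.65 and the lowest ratio, 1.24, in LOC100680164. Among the deeper libraries, 3 female and 5 male, all 43 were higher in females, 37 of them at least 4-fold, with a median of 9.09 and the lowest ratio, 2.85, in LOC100117458. The 4-fold limit itself lay in a dense region. The loci just inside it were LOC116417586 (ratio 4.17) and LOC103315910 (4.27), and those just outside were LOC107980651 (3.97) and LOC100679507 (3.93). At the limit of 5 TPM for the lower female head mean, LOC100124144 (5.29 TPM with the constant added) and LOC100114077 (5.36 TPM) were just inside and LOC107981096 (4.88 TPM) and LOC100678400 (4.06 TPM) just outside. At the limit against 2N female abdomens, LOC100678016 (head to abdomen ratio 1.10) and LOC100114077 (1.40) were just inside, and LOC116416005 (0.0557) was the single locus left out.

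Of the 43 loci, 40 are protein coding and 3 are long non-coding RNAs, LOC100680373, LOC116416192 and LOC116417586. Long non-coding RNAs were thus 6.98% of the loci, against 7.26% of all LOC genes and 1.62% of LOC genes of at least 5 TPM in 2N female heads.

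The abdomen levels, of which the rule used only the 2N female mean as an upper limit, split the loci in different directions. After these values were seen, the loci were sorted into 3 patterns. The head pattern, with every abdomen mean under 25% of the 2N female head mean, held 15 loci. The male abdomen pattern, with both male abdomen means at or above the 2N female head mean, held 15 loci. The 3N female abdomen pattern, with a 3N female abdomen mean of at least 5 TPM and at least 4 times both male abdomen means, held 11 loci, and LOC100114870 and LOC116417586 met none of these. The head pattern was assigned last. LOC103316375, with its highest abdomen mean at 19.6% of the 2N female head mean, is therefore in the 3N female abdomen pattern. In the plots the patterns are named mainly heads, also male abdomens and also 3N female abdomens. The group of the highest mean was the 2N female head for 14 loci, the 3N female abdomen for 13, the 3N female head for 9, the 2N male abdomen for 5 and the 1N male abdomen for 2. In all, 20 loci had some abdomen mean above their 2N female head mean.

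**Figure D2:**
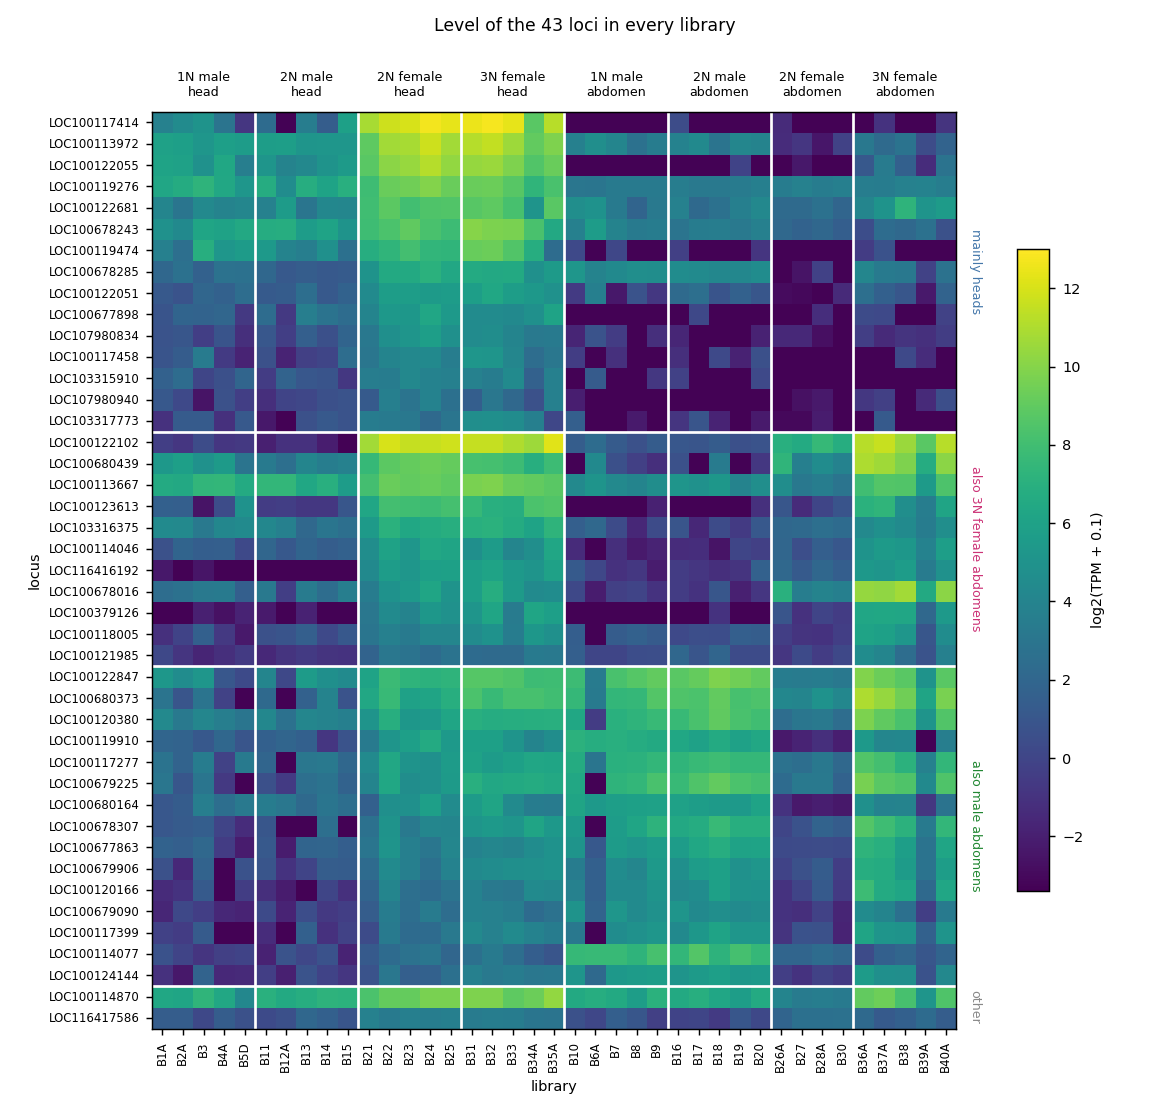
Rows are the 43 loci grouped by abdomen pattern and columns are the 39 libraries grouped by ploidy, sex and tissue; colour gives log2(TPM + 0.1). Female heads are higher than male heads in all rows on average, and the rows differ in which abdomens are also high.

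The map of the 43 loci by library shows the 3 patterns as blocks. In the head pattern were the first, the third and the fourth highest loci, LOC100117414, LOC100113972 and LOC100122055. LOC100119276 followed with 725 ± 179 TPM (SD, n = 4) in 2N and 429 ± 203 TPM (n = 5) in 3N female heads, 92.2 ± 42.7 and 87.2 ± 41.2 TPM (n = 5 each) in 1N and 2N male heads, and 9.26 to 12.5 TPM as means of the abdomen groups. Its abdomen groups differed little in level. LOC100119474 had 191 ± 56.8 TPM (n = 4) in 2N female heads and at most 0.426 TPM as a mean in any abdomen group. For 8 of the 43 loci all 4 abdomen means were below 1 TPM. The 7 loci with too few counts for a test in abdomens were all of the head pattern: LOC100117414, LOC100119474, LOC100677898, LOC100117458, LOC103315910, LOC107980940 and LOC103317773. The 36 others passed that filter, which a single group with enough counts satisfies.

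In the male abdomen pattern the 2N male abdomen mean could not be below the 2N female one, by the rule and the pattern's definition. The sex difference of heads was thus turned around in 2N animals by choice. LOC100119910 had 10.3, 34.7, 59.1, 97.1 and 41.5 TPM in 2N female heads and 59.3, 59.5, 34.2, 15.7 and 24.9 TPM in 3N female heads, against 0.460 to 4.11 TPM in male heads. In abdomens it had 139, 113, 124, 106 and 95.9 TPM in 1N males and 81.6, 63.4, 101, 63.5 and 88.3 TPM in 2N males, against 0.110, 0.200, 0.340 and 0.150 TPM in 2N females. The 3N female abdomens, at 41.5, 17.8, 17.9, 0 and 12.1 TPM, lay between, except B39A at 0 TPM, which was below every 2N female abdomen. Male heads were low and male abdomens high in every library.

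LOC100114077 was the extreme of this pattern, with 5.87 ± 1.88 TPM (SD, n = 4) in 2N female heads but 195, 199.9, 205, 154 and 299 TPM in 1N and 176, 385, 145, 290.2 and 186 TPM in 2N male abdomens. Female abdomens had 3.71 to 5.14 TPM at 2N and 1.19 to 3.91 TPM at 3N, and male heads 0.180 to 1.60 TPM. Male abdomens were above all other libraries, and the female excess in heads was a matter of a few TPM. The non-coding LOC100680373 had 85.3, 204, 63.1, 71.4 and 120.2 TPM in 2N and 325, 205, 303, 299 and 251 TPM in 3N female heads and 0 to 15.4 TPM in male heads. In abdomens it had 184, 10.0, 179, 182 and 398 TPM in 1N males, 359, 322, 546, 301 and 337 TPM in 2N males, 17.8, 16.9, 30.4 and 17.97 TPM in 2N females and 1988, 1334, 684, 72.3 and 818 TPM in 3N females. Only B6A among males and B39A among 3N females were low.

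In the 3N female abdomen pattern the 3N female abdomens were above male abdomens by definition. Between 2N females and 2N males, 7 of its 11 loci were higher and 3 lower by the test given below, the lower ones being LOC100113667, LOC100118005 and LOC100121985. LOC100680439 had 195, 462, 558, 652 and 547 TPM in 2N and 303, 284, 231, 118 and 235 TPM in 3N female heads. In male heads it had 40.9, 58.7, 29.9, 45.4 and 7.54 TPM at 1N and 9.81, 5.96, 16.3, 11.5 and 13.6 TPM at 2N. Its abdomens had 2055, 1653, 914, 106 and 1114 TPM in 3N females, 163, 12.8, 23.3 and 14.3 TPM in 2N females and 0 to 20.96 TPM in males. Among 3N females B39A was the low library, below the 2N female abdomen B26A. LOC100678016 reached 1348, 1252, 1661, 96.2 and 1148 TPM in 3N female abdomens, against 128, 11.6, 14.97 and 12.6 TPM in 2N female and at most 1.90 TPM in male abdomens. Again B39A and B26A were the libraries that overlapped.

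LOC100123613, LOC116416192 and LOC100379126 had the same order of abdomen groups, with 3N females highest and B39A low. LOC100123613 had 137, 159, 25.6, 11.9 and 72.7 TPM in 3N female abdomens, 0.280 to 1.88 TPM in 2N female abdomens and at most 0.360 TPM in male abdomens. LOC116416192 had 40.5, 34.99, 50.8, 10.5 and 29.7 TPM in 3N female abdomens, 2.28 to 4.23 TPM in 2N female abdomens and 0.13 to 3.17 TPM in male abdomens. LOC100379126 had 78.3, 81.6, 80.7, 4.33 and 44.5 TPM in 3N female abdomens and 0.370 to 1.84 TPM in 2N female abdomens. For LOC100379126 no count was seen in 1N male abdomens, so that its level was at least 64.1-fold higher in 2N and at least 5846-fold higher in 3N female abdomens, with 3 counts over the group as the floor.

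Sex in 2N abdomens was tested with edgeR's quasi-likelihood test, adjusted by Benjamini-Hochberg over 11884 genes. Of the 36 loci tested, 9 were higher and 24 lower in 2N females than in 2N males, where 37.2% of all genes were higher and 46.3% lower. Among the 4360 tested LOC genes that met the other criteria of the rule, 14.9% were higher and 68.5% lower. The share of the loci that was lower was near that of these genes. Markers of other tissues moved strongly with sex in abdomens: the ovary and germ line sum was 2332 to 2769 TPM in 2N females and 16.3 to 24.8 TPM in 2N males, the fat body sum 1.79 to 2.18 and 203 to 325 TPM, and the muscle sum 373 to 401 and 1578 to 2448 TPM. The muscle marker Tm2 went against its sum, with medians of 120.1 TPM in 2N female and 37.8 TPM in 2N male abdomens. The part of these markers in the result was not tested. All 15 loci of the male abdomen pattern were lower. The 3 with the smallest adjusted p, LOC100114077, LOC100680164 and LOC100119910, had log2 differences of -6.24 ± 0.47 (SE; adjusted p = 1.17e-09), -8.58 ± 0.92 (adjusted p = 9.69e-08) and -8.94 ± 1.06 (adjusted p = 3.63e-07). LOC100122102 (5.73 ± 0.52, adjusted p = 1.24e-08), LOC100678016 (5.54 ± 0.98, adjusted p = 4.42e-05) and LOC116417586 (2.03 ± 0.44, adjusted p = 0.000345) were higher in females. The patterns were defined partly by these levels, so their counts are a description.

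Against 1N males, the usual ploidy of males, 8 loci were higher and 23 lower in 2N female abdomens, where 36.7% and 47% of all genes were, and 14.8% and 68.5% of LOC genes that met the other criteria. LOC100114077 differed by -6.13 ± 0.47 on the log2 scale (edgeR, adjusted p = 1.45e-09) and LOC100122102 by 5.07 ± 0.51 (adjusted p = 4.23e-08). This comparison shares its female libraries with the one against 2N males. Between 3N females and 2N males, 16 loci were higher and 5 lower in females, where 36.7% of all genes were higher and 38.2% lower, and among LOC genes that met the other criteria 14.4% and 58.8%. The smallest adjusted p among the higher loci were those of LOC100122102 (9.92 ± 0.62, adjusted p = 1.74e-10), LOC100678016 (10.45 ± 1.19, adjusted p = 3.33e-07) and LOC100114046 (6.25 ± 0.73, adjusted p = 4.77e-07). Those lower were LOC100114077 (-6.58 ± 0.43, adjusted p = 3.19e-10), LOC100680164 (-2.19 ± 0.58, adjusted p = 0.00247), LOC100678243, LOC100119910 and LOC100113972. The 11 loci of the 3N female abdomen pattern were all higher, which their definition favours, and 12 of the 15 of the male abdomen pattern did not pass the test.

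**Figure D3:**
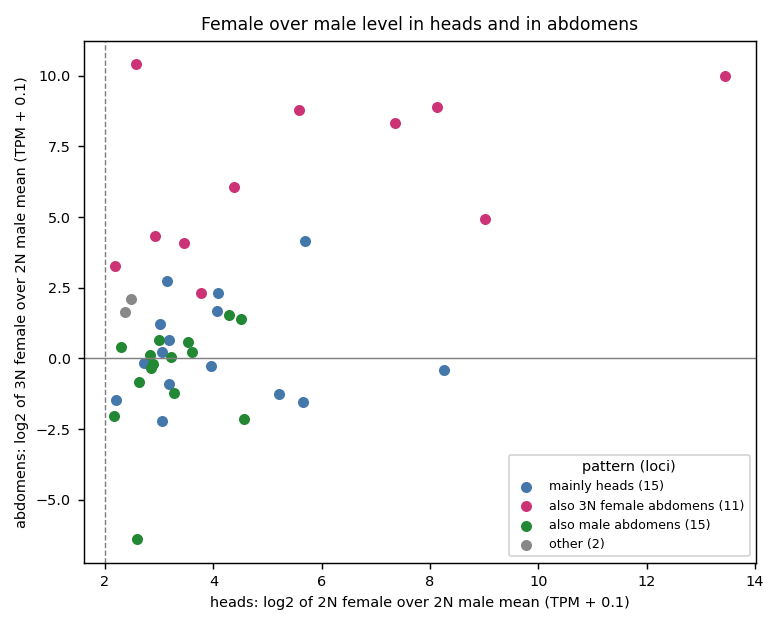
Each point is 1 of the 43 loci, with the log2 ratio of 2N female to 2N male means in heads on the horizontal axis and the log2 ratio of 3N female to 2N male means in abdomens on the vertical axis (0.1 TPM added); colours give the abdomen pattern and the dashed line is the 4-fold limit in heads. All loci lie right of the limit by choice, while the abdomen ratios run from far below 0 (LOC100114077) to far above it (LOC100678016, LOC100122102).

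Of the 4 ploidy comparisons, loci passed the edgeR test only in female abdomens. Of the 36 loci tested with edgeR, 3N female abdomens were above 2N in 31 and below in 0, where 28.7% of all 11884 genes were higher and 10% lower. The rule capped the 2N female abdomen mean, and among the 4360 LOC genes that met its other criteria 49.3% were higher and 3.92% lower. The median log2 difference was 5.30 over the 36 loci and 0.10 over all genes. The groups did not overlap in 26 loci, all higher in 3N, where 15.6% of all genes were so and 11.2% did not overlap in the other direction. LOC100122102, for which the values by library are given above, was higher by 4.19 ± 0.53 (adjusted p = 1.53e-05), LOC100114870 by 5.18 ± 0.66 (adjusted p = 1.60e-05) and LOC100113667 by 4.66 ± 0.61 (adjusted p = 1.89e-05). The 5 tested loci that did not pass were LOC100119276 (0.19 ± 0.12), LOC107980834 (1.93 ± 1.38), LOC116417586 (-0.53 ± 0.43), LOC100114077 (-0.33 ± 0.37) and LOC100678243 (0.23 ± 0.52). LOC100122055 had 332 counts in 3N and 2 in 2N female abdomens, a ratio of levels of 117.5 (95% counting interval 32.3 to 974).

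By pattern, 14 of 15 loci of the male abdomen pattern, 11 of 11 of the 3N female abdomen pattern, 5 of the 8 tested of the head pattern and LOC100114870 were higher in 3N female abdomens. Without the filter on low counts all 15 loci of the head pattern were tested and 5 were higher. The exception of the male abdomen pattern was LOC100114077. The 3N female abdomen pattern was defined by a high 3N mean and the rule capped the 2N mean, which favours its count. The counts by pattern are therefore a description. Markers of other tissues moved with this comparison. The summed level of the 6 ovary and germ line markers was 2332 to 2769 TPM in 2N and 917 to 1421 TPM in 3N female abdomens, with 2589 TPM in B39A. The sum of 4 fat body markers was 1.79 to 2.18 TPM in 2N and 3.32 to 51.1 TPM in 3N, and that of 3 muscle markers 373 to 401 TPM and 496 to 1635 TPM. The muscle marker Tm2 went against its sum, with medians of 120.1 TPM in 2N and 65.9 TPM in 3N female abdomens. The part of these tissues in the result was not tested.

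The library B39A, whose ovary marker sum was that of a 2N female abdomen, was also the lowest of the 3N female abdomens for 30 of the 43 loci. The median difference from the group median over the 43 loci was -2.99 on the log2(TPM + 0.1) scale, with 14 of 15 loci of the male abdomen pattern and 11 of 11 of the 3N female abdomen pattern being lowest there. With B39A and the 1N male abdomen B6A left out, 31 loci were again called between 3N and 2N female abdomens. B6A was the lowest 1N male abdomen for 13 of the 15 loci of the male abdomen pattern, with a median of -4.01 from the group median, although its ovary marker sum, 19.8 TPM, was within the 16.3 to 24.8 TPM of male abdomens. B6A held 18.2 M counts and the other 1N male abdomens 34.6 to 66.2 M. The part of depth in its low levels was not tested. In heads, B34A was the lowest 3N female head for 10 of the 15 loci of the head pattern (median -1.46) and at the group median for the male abdomen pattern. B34A and B35A held 18.1 M counts each and the other 3N female heads 32.9 to 71.9 M.

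**Figure D4:**
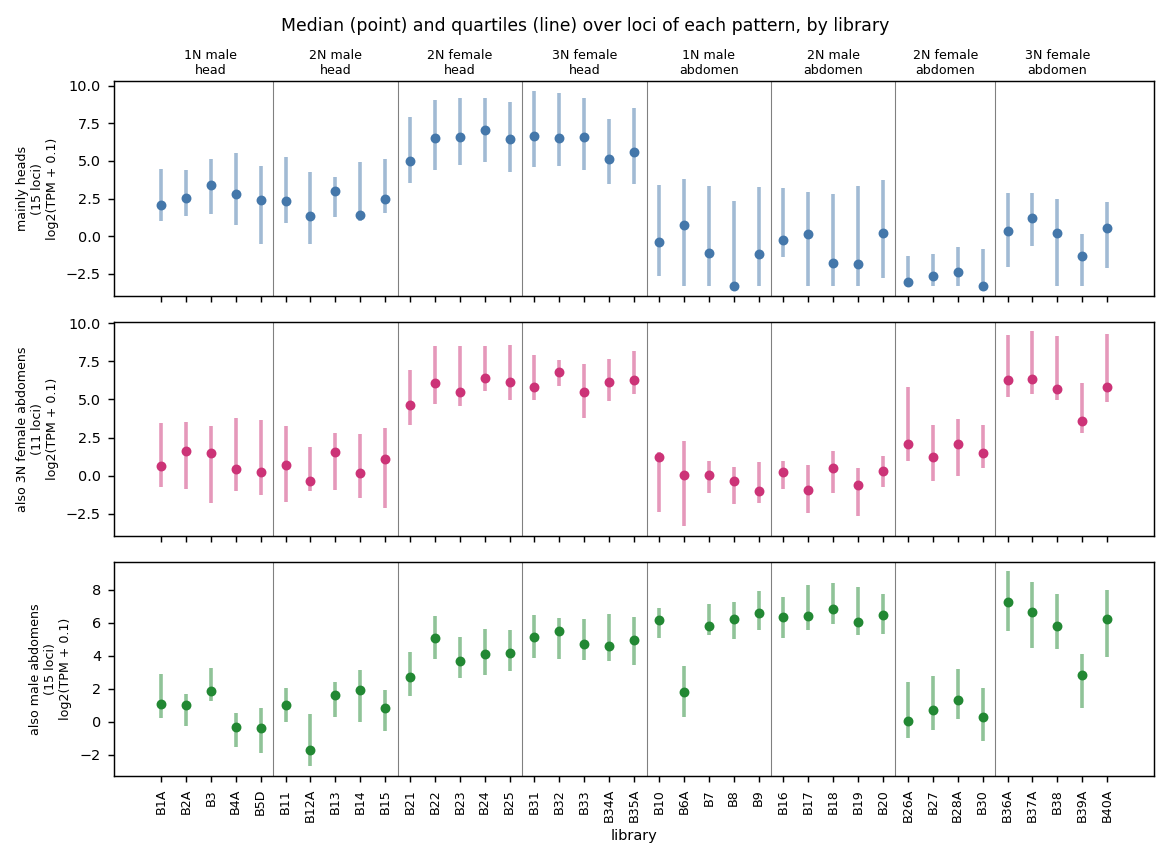
For each library on the horizontal axis, the point is the median and the line spans the quartiles of log2(TPM + 0.1) over the loci of 1 abdomen pattern, with 1 panel per pattern. B39A and B6A lie far below the other libraries of their groups in the male abdomen pattern (medians of -3.69 and -4.01 from the group median), and B21 lies below the other 2N female heads in all 3 panels.

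The plot of pattern medians by library shows libraries that were low in some patterns and not in others, and B21, which was low in all 3. In 2N male heads B12A was the lowest library for 10 of the 15 loci of the male abdomen pattern (median -1.57) and lay at -0.16 for the head pattern. B12A held 18.8 M counts and the other 2N male heads 57.6 to 132 M, and the part of depth was not tested. B21 was the lowest 2N female head for 12 of 15, 14 of 15 and 11 of 11 loci of the head, male abdomen and 3N female abdomen patterns.

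No locus passed the test for ploidy in heads. Between 3N and 2N female heads, 0 of 43 loci were called by edgeR in either direction, where 0.157% of 10846 genes were higher and 0.157% lower, and 4 loci had an unadjusted p under 0.05, where 18.3% of all genes did. DESeq2 called 0 as well. A fit of these 2 groups alone called 7, of which 6 of the male abdomen pattern, among them LOC100680373, were higher in 3N and LOC100680439 was lower, and with a term for depth 1 was called, LOC100119276, lower in 3N. The share of all genes called in these alternative fits is not given here, so nothing is read from their counts. The smallest adjusted p was 0.142, in LOC100680439, which was at 555 ± 77.5 TPM (SD, n = 4, without B21) in 2N and 234 ± 72.1 TPM (n = 5) in 3N female heads (log2 difference -1.07 ± 0.39). The test and its log2 difference included B21, at 195 TPM. LOC100680373, LOC100117399 and LOC100678307 did not overlap between the groups, all higher in 3N, where 8.8% of all genes were so and 5.73% did not overlap in the other direction. LOC100117399 had 1.19, 9.50, 4.87, 5.0 and 9.27 TPM in 2N and 19.7, 13.8, 21.99, 14.4 and 11.1 TPM in 3N female heads (log2 difference 1.42 ± 0.74, adjusted p = 0.311). LOC100678307 had 6.45 to 33.1 TPM in 2N and 35.2 to 73.5 TPM in 3N (1.43 ± 0.81, adjusted p = 0.354).

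The medians of the patterns differed here, with no locus past the test. In the male abdomen pattern 14 of 15 log2 differences were positive with a median of 0.87, and without B21 12 of 15 with a median of 0.75. The median over all genes tested was -0.021. Among 2N female heads B22 was the highest for 12 of these 15 loci and B21 the lowest for 14. Loci that move together by library are not separate observations, so the counts by pattern are a description. In the head pattern 5 of 15 were positive with a median of -0.16, but the median was 0.085 (9 of 15 positive) without the 3N library B34A and 0.046 (8 of 15) without the 2N library B24. In the 3N female abdomen pattern 7 of 11 with a median of 0.19. The depth classes are uneven between these groups, since no 2N female head exceeded 30 M counts and 3 of 5 of the 3N did. With a term for depth the median of the male abdomen pattern was 0.19 with 12 of 15 positive, and that of the head pattern -0.52 with 3 of 15 positive.

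Between 2N and 1N male heads, 0 of 43 loci were called by edgeR, where 0.00922% of genes were higher and 0.0645% lower, and 6 had an unadjusted p under 0.05, where 10.7% of all genes did. LOC100680439 had the smallest adjusted p, 0.191, at 36.5 ± 19.2 TPM in 1N and 11.4 ± 3.92 TPM in 2N male heads (SD, n = 5 each; log2 difference -1.73 ± 0.41). LOC100123613 followed at -3.09 ± 0.89 (adjusted p = 0.242), with 30.9 TPM in the 1N library B5D and at most 2.96 TPM in the other 1N male heads. DESeq2 called these 2 loci as lower in 2N, with adjusted p of 0.00494 and 0.0455. Its share over all genes is not given here, so nothing is read from that count. The median log2 difference of the 43 loci was -0.11, and 0.10 without the 1N library B3. B3 held 41.8 M counts and the other 1N male heads 16.3 to 22.5 M. LOC100680439 had the lower mean at the higher ploidy in heads of both sexes and passed the edgeR test in neither.

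The ploidy difference of female heads minus that of male heads was called in 0 of 43 loci, as in 0% of all genes, with 6 at an unadjusted p under 0.05 where 9.63% of genes were (edgeR, smallest adjusted p = 0.483). In male abdomens 0 of 36 loci were called between 2N and 1N (background 0.0252% higher and 0.0168% lower), 1 had an unadjusted p under 0.05 where 5.43% of genes did, and the smallest adjusted p was 0.909, in LOC107980834. The ploidy difference in abdomens itself differed between the sexes. Female minus male, it was higher in 28 of 36 loci and lower in 0, where 23.6% of all genes were higher and 3.44% lower, and 40.5% higher and 1.56% lower among LOC genes that met the other criteria. LOC100122102 had the smallest adjusted p (4.85 ± 0.66, adjusted p = 0.000125), followed by LOC100114870 (5.38 ± 0.79, adjusted p = 0.000157) and LOC100680164 (6.55 ± 1.00, adjusted p = 0.000181).

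Some of the 43 loci lie next to each other in the gene order of the reference assembly, whose build may differ from that of the deposited tables. With 0 genes between them lie LOC100117414 and LOC100117458, LOC100122102 and LOC100114046, and LOC100678285 with LOC100119910 on 1 side and LOC100680164 on the other. LOC100113972 and LOC100114077 are separated by 1 gene, LOC100116041, and LOC100122055 lies 3 genes from LOC100122102 and 4 from LOC100114046. LOC100117277 and LOC100679906 have 4 genes between them. Estimated counts divide reads that match several genes, so neighbours of near-identical sequence would carry that uncertainty.

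Adjacent loci could have like or unlike levels. LOC100122102 and LOC100114046 were both of the 3N female abdomen pattern: LOC100114046 had 24.6, 66.7, 37.9, 86.2 and 71.7 TPM in 2N and 26.9, 47.7, 16.5, 25.7 and 78.5 TPM in 3N female heads, 1.08 to 4.0 TPM in male heads, and 32.2, 46.6, 38.3, 14.7 and 55.1 TPM in 3N female abdomens. Both were high in female heads and 3N female abdomens and low in all male libraries. The trio of LOC100119910, LOC100678285 and LOC100680164 was high in female heads and in male abdomens. LOC100678285 had 102 ± 21.2 TPM (SD, n = 4) in 2N female heads and 24.6 ± 7.82 and 21.1 ± 2.54 TPM (n = 5 each) in 1N and 2N male abdomens, and LOC100680164 had 34.3 ± 16.4 TPM in 2N female heads and 58.7 ± 9.65 and 55.1 ± 11.4 TPM in those abdomens. All 3 were near 0 in 2N female abdomens, with means of 0.200, 0.207 and 0.188 TPM.

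LOC100117277 and LOC100679906, both of the male abdomen pattern, had like orders of groups, with 49.0 ± 27.3 and 13.8 ± 6.5 TPM (SD, n = 4) in 2N female heads, 193 ± 28.6 and 41.1 ± 14.7 TPM (n = 5) in 2N male abdomens and 6.33 ± 1.92 and 1.34 ± 0.813 TPM (n = 4) in 2N female abdomens.

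LOC100113972 and LOC100114077 were unlike. LOC100113972 reached 2182 ± 887 TPM (SD, n = 4) in 2N female heads and stayed at 14.7 ± 7.47 and 15.1 ± 4.93 TPM (n = 5 each) in male abdomens, while LOC100114077 on the other side of LOC100116041 had its highest levels there. The gene between them had 24.5 TPM as the mean of 2N female heads, against 13.8 and 18.2 TPM in 1N and 2N male heads. LOC100117458, next to LOC100117414 and like it of the head pattern, was at a much lower level: it had 16.8 ± 4.05 TPM (n = 4) in 2N female heads, and the gene on the other side, LOC116416311, had 1.93 TPM there, against 0.10 and 0 TPM in male heads.

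**Figure D5:**
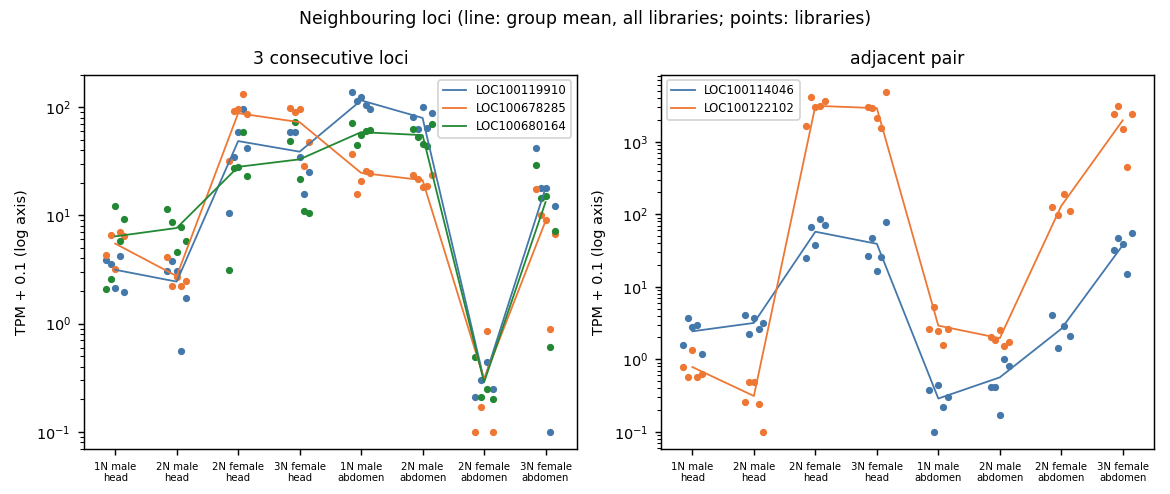
Each panel shows neighbouring loci, with the 8 groups on the horizontal axis and TPM + 0.1 on a log axis; points are libraries and lines join group means over all libraries. The adjacent LOC100122102 and LOC100114046 are both higher in female than in male heads, but their lines cross. LOC100122102 lies below LOC100114046 in male heads and far above it in female heads. LOC100119910, LOC100678285 and LOC100680164 each have higher means in female heads and in male abdomens than in male heads.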

How the data were processed

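RNA of heads and abdomens was sequenced in 39 libraries. Per the labels' protocols, libraries were made from poly-T purified mRNA, with no strand setting given, so antisense and overlapping genes were not told apart. STAR 2.7.11a and RSEM 1.3.1 are the tools in the submitters' processing notes, and the build is not given in the sources used here. The authors deposited estimated counts for 14621 genes, of which 16.8% of values are not whole; they were rounded. The authors also deposited TPM for 14613 genes, which gave the rule and all levels.

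Libraries were grouped by their labels, and B21 was kept in all tests of heads except where it is named as left out. Counts were tested with edgeR 4.0.16 (R 4.3.3; quasi-likelihood F test, TMM, filterByExpr, two-sided, Benjamini-Hochberg over all genes, threshold 0.05), heads (10846 genes) and abdomens (11884 genes) each in 1 fit. The difference of ploidy effects between sexes was added after seeing the data. Errors of log2 differences are standard errors of the fit. Scripts were tested on simulated data. Alternatives were DESeq2 1.42.0, limma 3.58.1 on log2(TPM + 1) and log2(TPM + 0.1), library totals, no filter, a term for libraries over 30 M counts, fits of 2 groups, and leaving out each library. Each of the 76 pairs of libraries within groups differed by more than counting noise (chi-square divided by its degrees of freedom at least 10.2).

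The loci, the marker lists and the patterns were chosen with earlier results of these data known. Loci named are a selection from those with the highest level or ratio, the smallest adjusted p in each comparison, those next to the rule's limits and neighbouring loci; those given by library, and LOC100119276, LOC100119474, LOC100678307 and LOC100117399, were chosen after their values were seen. From the ovary list, the symbol Nos was left out after its values were seen, since it is not nanos. No coordinates and no sequence are given, since neither a genome nor sequences were used here.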

Additional observations from a re-analysis of the deposited data

Results flagged for a closer look

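Single libraries far from the others of their group were looked for in the 14 loci given library by library, with Dixon's criterion in groups of 4 or 5 libraries, in 93 pairs of locus and group with some level of at least 1 TPM. It marked 14 of them. The criterion marks about 1 in 20 only for normally distributed values. It was applied to TPM without a log scale, in loci chosen after their values were seen, so nothing is read from this number.

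Among male heads, LOC100117414 had 59.93 TPM in the 2N library B15, and LOC100123613 had 1.9 TPM there, each the highest of its group. LOC100122102 had 1.26 TPM in the 1N male head B3 and LOC100123613 30.88 TPM in the 1N male head B5D, and LOC100117399 had 2.97 TPM in the 2N male head B13. In male abdomens LOC100117414 had 1.26 TPM in the 2N library B16, LOC116416192 had 3.17 TPM in the 2N library B20, and LOC100680439 had 20.96 TPM in the 1N library B6A. The 2N male abdomen B18 was high in LOC100680439 (10.75 TPM), in LOC100678016 (1.9 TPM) and in the non-coding LOC100680373 (545.62 TPM). In 2N female abdomens LOC100680439 had 162.98 TPM and LOC100678016 128.45 TPM in B26A, and LOC100680373 had 30.37 TPM in B28A. All 14 were the highest library of their group.

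The ploidy difference in abdomens differed between females and males in 28 of 36 loci by edgeR's test of that difference. All went in the direction of a larger rise in females. By the same test 23.6% of all genes went in that direction and 3.44% in the other. Among LOC genes that met the other criteria of the rule these shares were 40.5% and 1.56%. The rule capped the mean of diploid female abdomens, which favours this direction, so the count is a description.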

How the results depend on the processing

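The rule chose 38 loci with B21 in the 2N female head mean, 44 with 0 and 37 with 1 in place of 0.1 TPM, 62 with a 3-fold and 27 with a 6-fold limit, and 29 with CPM, of which 27 were shared. Loci called between 3N and 2N female heads numbered 1 (LOC100119276, lower) with a depth term, 7 (6 higher, 1 lower) in a fit of the 2 groups alone and 1 (LOC100680439) without B21 and B5D. Between 2N and 1N male heads there were 2 by DESeq2, 1 without B3 (LOC100123613), 1 without B5D (LOC100680439) and 1 without B21 and B5D; the median log2 difference was 0.096 without B3 and -0.31 without B5D. The cause was not tested. Shares of all genes called are given for the main fits only, so nothing is read from these head counts. Leaving out 1 library at a time gave 0 to 0 called loci for ploidy in female heads, 0 to 1 in male heads, 29 to 31 in female abdomens and 0 to 0 in male abdomens. For sex in abdomens it gave 30 to 33 (2N against 2N), 29 to 32 (2N against 1N) and 21 to 23 (3N against 2N), and for the difference of ploidy effects 26 to 29 in abdomens and 0 to 0 in heads. In abdomens every alternative kept the number of called loci within 1.5 times. Of 465 fits under the alternatives of the abdomen loci called and named by smallest adjusted p, 465 kept their call and 0 reversed. These loci had the smallest adjusted p in the main fits of the same data, which favours keeping the call. Head loci are not among them. No paired analysis was possible because library numbers are unique to a library. Groups with a count of 0 allow only bounds on a fold and those of 1 to 3 counts only ratios with wide intervals. The depth of 2N female heads is confounded with their group. In abdomens depth went largely with sex. All 2N male abdomens exceeded 30 M counts (35.7 to 123.7 M), as did all 1N male abdomens but B6A. Among female abdomens only B27 (2N, 45.0 M) and B38 (3N, 79.3 M) did.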
